A study of Mus musculus with 18 samples.

Results

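The genes described here are 40 mouse genes of plasma cell differentiation and protein secretion, chosen by name for their known roles. They comprise 7 plasma cell regulators and markers, 4 sensors and transcription factors of endoplasmic reticulum (ER) stress, 9 chaperones and cochaperones, 9 genes of ER-associated degradation, 5 genes of disulphide formation and 6 genes of protein translocation and vesicle export. All 40 were found among the 22270 protein-coding genes of the annotation used, GENCODE M1 on the mouse assembly mm9. A site of RAD21, a subunit of cohesin, was assigned to a gene when the centre of a peak lay in the gene body or within 20 kb of it. The 40 genes had 55 such sites of 18957 in all, and 33 of the 40 had at least 1 site.

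A plasma cell arises when an activated B cell turns its protein output to antibody. Its ER enlarges under the unfolded protein response, in which the sensor IRE1, encoded by Ern1, splices the mRNA of the transcription factor XBP1, while ATF6 and ATF4 act in parallel branches. Chaperones fold immunoglobulin chains, oxidases and isomerases join them through disulphide bonds, ER-associated degradation removes chains that fail to fold, and coated vesicles carry the product to the Golgi. Cohesin is a ring-shaped complex that holds sister chromatids together and anchors chromatin loops, often where the DNA-binding protein CTCF is bound.

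RAD21 ChIP-seq was performed on B cells purified on magnetic columns from spleens of wild-type C57BL/6 mice (C57BL/6J in the methods) that were 8 to 10 weeks old. The cells were either left unstimulated, as resting B cells, or cultured with lipopolysaccharide (LPS) and interleukin 4 (IL-4) for 48 h or 96 h, a treatment that induces switching to IgG1. The 96 h-stimulated B cells were additionally enriched for IgG1-positive cells by negative selection, so that the time in culture and the enrichment cannot be told apart. Each of the 3 replicates per time point came from the cells of 12 mice, and 1 peak list per replicate plus 1 list per time point from merged reads, called pooled here, made 12 lists. In such populations, more cells with RAD21 at a position and more RAD21 per cell cannot be told apart, and a peak list holds no gene expression by which the B cell identity could be checked. A missing peak means that the authors' peak caller listed none, not that cohesin was absent.

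The lists differed in length within and between time points, and this bears on every share below. The replicate lists held 821 to 3578 peaks in resting B cells, 1538 to 5254 at 48 h and 2807 to 8579 at 96 h, and the pooled lists held 5690, 5579 and 12806 peaks. Replicate 3 was the longest list at 96 h and replicate 2 the longest at 48 h. Sites with a peak in replicate 2 at 48 h and in no other replicate, nor in the resting or 96 h pooled list, numbered 4548 outside the 40 genes. Of these, 1.39% held the motif described below and 63.5% held a short tandem repeat. The 40 genes had 5 such sites, and 0 of the 5 held the motif.

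Sequences at the sites named by rule are shown first, because most sites that recurred among replicates share 1 kind of motif. A 20-base motif was derived from 935 training sites, which had peaks in 6 or more replicates and did not lie at the 40 genes. Its consensus was NNNCCACNAGGGGGCNCNNN, which resembles the known CTCF motif, and both strands were searched within 100 bp of each site's centre. The 4 sequences that follow belong to Ern1, Zbtb20, Igj and Ero1lb, at sites named by the rule given with the methods. The capitals mark the 20 bases matched to the motif, read 5′ to 3′ on the strand of the match in mm9.

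Zbtb20 site 4: catgtTATCCACTAGAGGGCAGTAGggata
Ern1 site 3: cctatCTTCCACTAGATGGCGGCATtttct
Igj: caatcCAACCACTAGGTGGAAGCAGaggcc
Ero1lb site 2: aacaaAGGCCAAAGGAGGGCGCCAGatccc

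These matches lie at chr16:43540371-43540390 on the plus strand, at chr11:106352926-106352945 on the minus strand, at chr5:88948447-88948466 on the plus strand and at chr13:12681468-12681487 on the minus strand. The next 6 sequences were added after their values were seen. They are the other matches at sites with a peak in at least 3 replicates, printed in the same way.

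Ern1 site 2: gctttTGCCCACCAGGGGGCAGTATgttac
Ern1 site 1: tttctCCACCACTAGATGGCACTCAtgtgc
Cd38 site 4: gaagaGAGGCAGTAGGGGGCAGCAGagagc
Creb3l2 site 5: attttCAGCCACAGGGTGGCAGCGTtgtag
Cd38 site 3: tggatTTTCCTGTAGGGGGCAACATtgtct
Atf4: ccatgTGATCATTAGGTGGCGCTGCaggac

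Matches had to reach 8.30 log2 odds, a level that 5.00% of windows 1 kb away from the sites reached. Of the 55 sites at the 40 genes, 38 (69.1%) held a match, beside 65.0% of the 17967 other sites outside the training set. Among the 11 sites with a peak in at least 3 replicates, 9 held one (81.8%). Of the 2813 other such sites outside the training set, 91.6% held one. Those had peaks in fewer than 6 replicates, whereas the 11 include Ern1 site 3 with 6 and Ero1lb site 2 with 9. The 2 of the 11 without a match, at Sdf2l1 and at Zbtb20 site 5, each held a tandem repeat instead. These were of GT over 38 bp and of AG over 32 bp. Short repeats of this kind also stood at sites seen only at 48 h, for example in intron 4 of Creb3l2, where the repeat is shown in capitals.

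Creb3l2 site 3: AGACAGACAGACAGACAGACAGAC

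Tandem repeats of at least 20 bp were found at 7 of the 55 sites (12.7%). Beside this stood 20.6% of other sites and 6.45% of the windows 1 kb away. Of the 3695 other sites with a repeat, 2888 belonged to the class of replicate 2 at 48 h described above. In the resting and 96 h pooled lists the order was the reverse, at 12.5% beside 5.20% and 6.98% beside 4.71% of other sites. These shares rest on 3 sites at the 40 genes in either list. In the 96 h pooled list, 76.7% of the 43 sites at the 40 genes held the motif, against 91.1% of other sites in that list. In the resting list the shares were 75% of 24 sites and 86.1%, and in the 48 h list 81.8% of 11 sites and 44.9%. Of the other sites in the 48 h list, 36.7% held a tandem repeat, far more than in the resting and 96 h lists. Whether the 40 genes differ from other sites in the motif at 48 h was not tested. A match is a description of the letters in a window and not evidence that CTCF was bound.

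The first comparison asked how many plasma cell and secretion genes had a RAD21 site at each time point, and how this compared with genes of similar length, since a long gene gathers more peaks. In the pooled lists, 17 of the 40 genes had a site in resting B cells, 8 in 48 h-stimulated B cells and 30 in 96 h-stimulated B cells. These are 42.5% (exact binomial 95% interval 27.0% to 59.1%), 20% (9.05% to 35.6%) and 75% (58.8% to 87.3%). Of all protein-coding genes, 26.5%, 20.8% and 47.7% had one. Protein-coding genes within 1.2-fold of each member's length, averaged over the 40 members, had one in 28.8%, 22.6% and 51.7% of cases. The shares of the 40 genes in the resting and 96 h lists thus stood above those of genes of similar length, and the share in the 48 h list stood slightly below. The latter order turned with the window, since 15% of the 40 genes and 8.56% of similar genes had a 48 h site within the gene body. Without pooled 48 h peaks supported by replicate 2 alone, the 48 h shares were nearly equal, at 17.5% and 17.7%. With all 12 lists, 82.5% of the 40 genes and 59.5% of similar genes had a site, beside 55.3% of all protein-coding genes. The intervals cover counting error only, treat genes as independent, and do not include the spread between replicates.

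**Figure D1:**
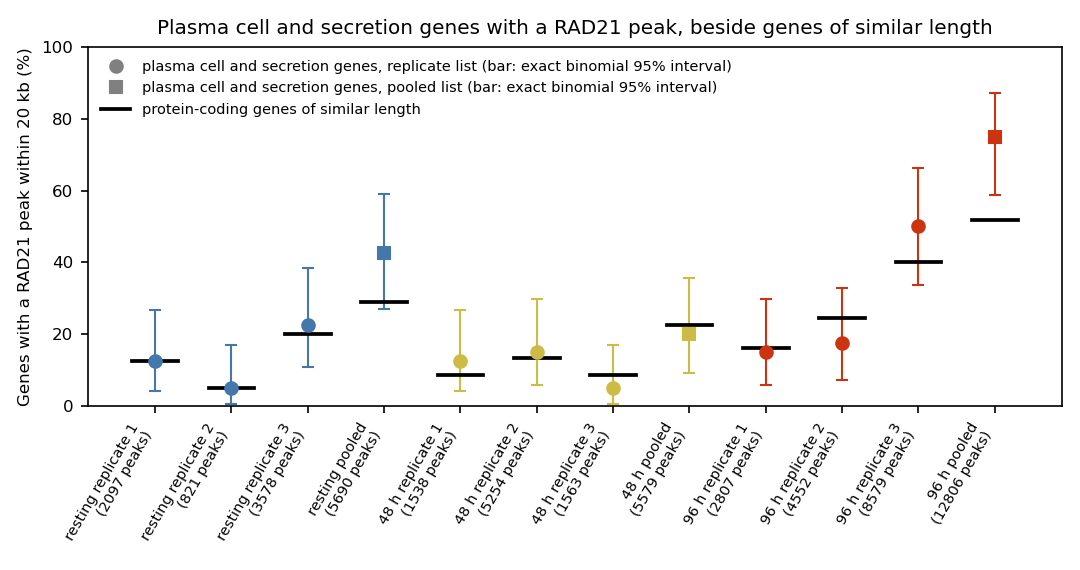
Share (%) of the 40 plasma cell and secretion genes with a RAD21 peak in the gene body or within 20 kb, in each of the 12 lists (circles, replicates; squares, pooled; bars, exact binomial 95% intervals), with the share of protein-coding genes of similar length as black lines. The squares for the resting and 96 h pooled lists, at 42.5% and 75%, sit above their lines at 28.8% and 51.7%, while the circles of the replicates lie on both sides of theirs.

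In single replicates the shares of the 40 genes lay on both sides of those of similar genes. Resting replicates had a peak at 5, 2 and 9 of the 40 genes, a mean of 13.3% ± 8.78 (SD, n = 3), beside 12.6% ± 7.52 for genes of similar length. At 48 h the numbers were 5, 6 and 2 genes, a mean of 10.8% ± 5.20 beside 10.1% ± 2.69. At 96 h they were 6, 7 and 20 genes, a mean of 27.5% ± 19.5 beside 26.9% ± 12.2. With the 20 kb window, the means of the 40 genes and of similar genes therefore differed by less than the SD between replicates at every time point. That SD also holds the differences in list length. Within each list, the share of the 40 genes minus that of similar genes was -0.0280, -0.0537 and 2.41 points in resting B cells. The differences were 3.98, 1.77 and -3.61 points at 48 h, and -1.11, -7.01 and 9.90 points at 96 h. Replicate 3 at 96 h held a peak at 50% of the 40 genes beside 40.1% of similar genes, and without it the 96 h mean was 16.3% beside 20.3%. Replicate 2 at 96 h lay below similar genes, at 17.5% beside 24.5%. With a 10 kb window the replicate means of the 40 genes stood above those of similar genes at each time point. These means were 13.3% beside 8.83% in resting B cells, 8.33% beside 7.28% at 48 h and 25% beside 19.7% at 96 h.

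The distance between the pooled and the replicate results can be read from the support of each site. Of the 43 sites at the 40 genes in the 96 h pooled list, 26 (60.5%) also had a peak in at least 1 of the 96 h replicates and 13 (30.2%) in at least 2, beside 71.1% and 35.8% of all sites of that list. When only pooled 96 h peaks found in at least 1 replicate were counted, 19 of the 40 genes had a site (47.5% beside 41.6% of similar genes). With at least 2 replicates, 9 genes remained (22.5% beside 24.7%). When only the 5579 peaks of highest score were kept from each pooled list, 11 of the 40 genes had a 96 h site (27.5% beside 29.1%). At this length 16 genes had a resting site (40% beside 28.5%) and 8 a 48 h site (20% beside 22.6%). The resting share thus stood above the 96 h share. The excess over similar genes at 96 h therefore rested on pooled peaks of lower score or without a peak in any replicate. In the resting list, 14 of 24 sites had support from at least 1 replicate, and the share of genes became 22.5% beside 21.7%.

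**Figure D2:**
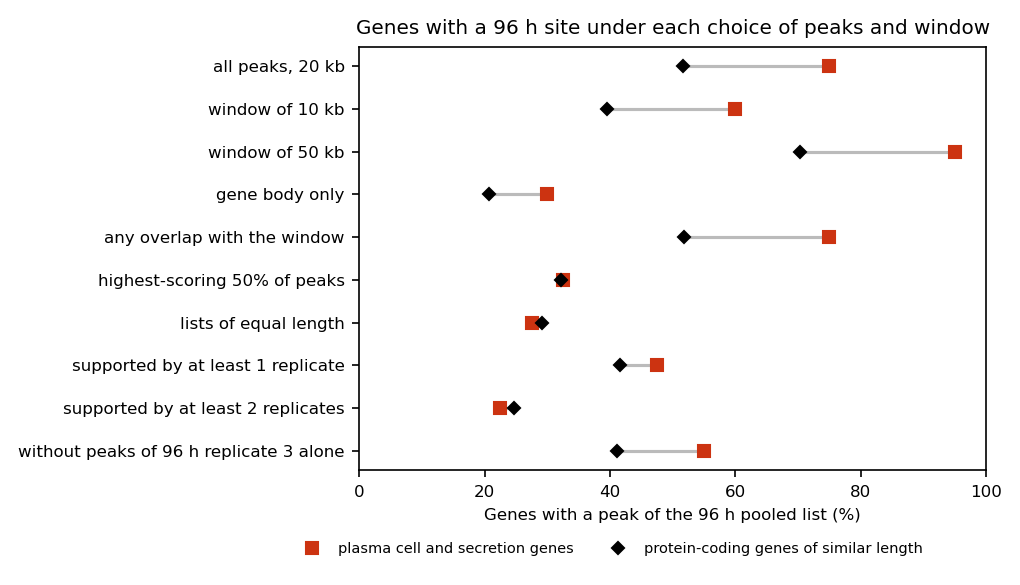
Share (%) of genes with a peak of the 96 h pooled list under each choice of window and peaks, for the 40 plasma cell and secretion genes (red squares) and protein-coding genes of similar length (black diamonds). The markers stand at 75% and 51.7% in the top line and nearly coincide for the highest-scoring 50% of peaks (32.5% and 32.2%), for lists of equal length and for peaks supported by at least 2 replicates.

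Across the 3 pooled lists, 7 genes had a site at every time point, though not always the same site: Ern1, Atf4, Creb3l2, Pdia4, Ero1lb, Zbtb20 and Cd38. At Creb3l2 and Pdia4 no single site was in all 3 lists. The 48 h site of Creb3l2 had a replicate peak in replicate 2 at 48 h alone. At Zbtb20 only site 5 was in all 3 lists, at percentile 0.369 in the resting list. A further 7 genes had a site in resting and 96 h-stimulated B cells and none at 48 h, namely Igj, Sdc1, Hspa5, Dnajc3, Herpud1, Pdia6 and Sdf2l1. The largest class, 15 genes, had a site only in the 96 h list, among them Xbp1, Atf6, Edem1, Edem2, Edem3, Sel1l and every translocation and export gene that had a site. Derl1, Derl3 and Calr had one in the resting list alone, and Dnajb11 in the 48 h and 96 h lists. Counted by site, 22 of the 55 sites (40%) were in the 96 h pooled list alone, beside 36.9% of all 18957 sites and 44.5% of sites in any pooled list. Sites in the resting and 96 h lists without 48 h numbered 12 (21.8%, beside 13.4% of all sites), and 7 sites (12.7%, beside 12.6%) were in all 3 lists. The latter class makes up 15.2% of sites in any pooled list.

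The 55 sites differed in their support. No replicate held a peak at 20 of them, 1 replicate at 18 and 2 replicates at 6, which left 11 found in 3 or more of the 9 (20%, beside 19.8% of all sites). The shares with no replicate peak and with 1 were 36.4% and 32.7%, beside 19.8% and 48.2% of all sites. Single sites were compared between time points by an exact permutation test on the score percentile. This is the share of peaks in a list with a score at or below that of the peak. It was set to 0 where a replicate had none. As a rank within its list, the percentile also depends on the length and make-up of that list, and a lower one need not mean less RAD21. Of the 3759 sites tested genome-wide, 22.6% had an unadjusted p of at most 0.05, and 0% after Benjamini-Hochberg adjustment, the smallest adjusted p by this exact permutation test being 0.172. Among the 11 tested at the 40 genes, 2 had an unadjusted p of at most 0.05, Ero1lb site 2 and Zbtb20 site 4, and 0 passed after adjustment. The lowest p that a comparison of a pair of time points could give was 0.1.

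**Figure D3:**
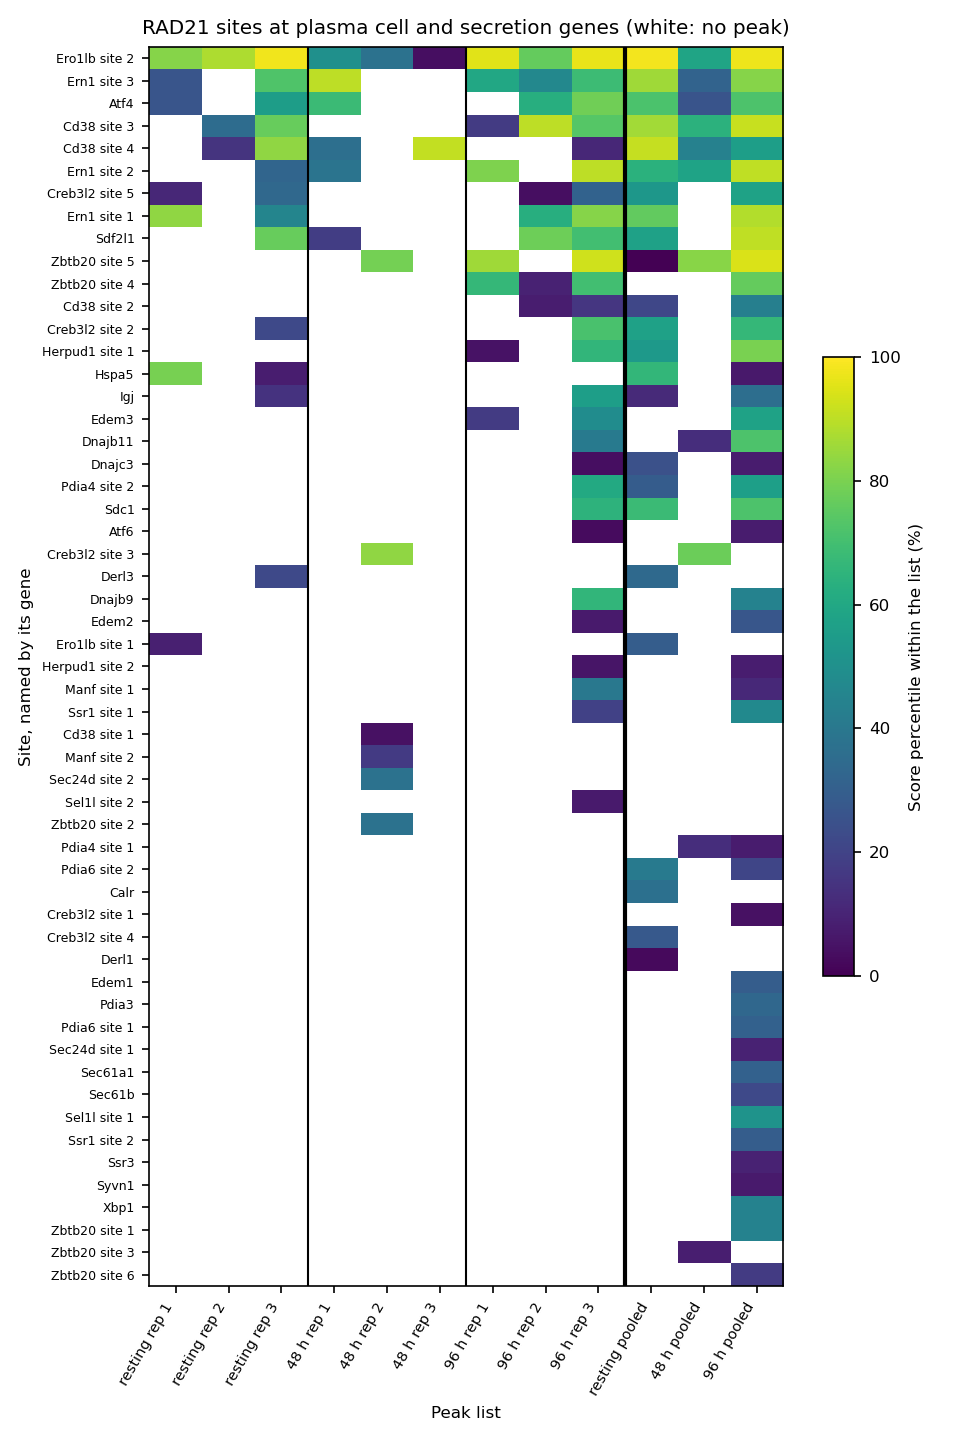
Score percentile of each of the 55 sites (rows, named by gene) in the 9 replicate and 3 pooled lists (columns), with white where the list held no peak. Ero1lb site 2 fills all 12 columns, Ern1 site 3 fills 9, and 20 rows have colour only in the pooled columns on the right.

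Among the genes of disulphide formation, Ero1lb stood out by the recurrence of 1 site. Ero1lb encodes an ER oxidase that passes oxidising equivalents to protein disulphide isomerases. Its site 2, chr13:12681312-12681603 in intron 6 and 23307 bp from the gene start, was the only site at the 40 genes with a peak in all 9 replicates, a class of 38 sites among all 18957. Its percentiles were 82.0, 87.8 and 97.8 in resting B cells, 50.2, 37.7 and 3.65 at 48 h, and 95.7, 76.4 and 96.8 at 96 h. All 48 h replicates were below all others, and the resting and 96 h values overlapped. The means were 89.2, 30.5 and 89.6, and the exact permutation p was 0.0357 unadjusted and 0.172 adjusted over all sites. The difference of 48 h from either other time point had the lowest p possible, 0.1 by exact permutation. An order of this kind, with every 48 h replicate lowest, was found at 98 of the 3759 tested sites (2.61%). Only a site with a peak in every resting and 96 h replicate can show it, and most tested sites had peaks in fewer replicates. In the pooled lists the percentiles were 98.4, 58.4 and 97.4. The block of 20 bases shown above for this site had a motif score of 14.7 and lies on the strand opposite to the gene.

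The other sites of this group had a peak in at most 1 replicate. Ero1lb site 1, 6660 bp upstream of the start, had a peak in resting replicate 1 at percentile 8.77 and in the resting pooled list at 29.6, and held no motif. Pdia3, an isomerase of the calnexin cycle, had 1 site, 5394 bp upstream and inside Catsper2, only in the 96 h pooled list at percentile 33.3. Pdia4 had 2 sites, both inside the neighbouring gene Zfp786, and only site 2 had a replicate peak, at percentile 60.9 in replicate 3 at 96 h, with pooled percentiles of 29.2 in resting B cells and 56.3 at 96 h. The 2 sites of Pdia6 had no replicate peak, and their percentiles in the 96 h pooled list were 31.1 and 20.9, with site 2 also in the resting pooled list at 41.1. Ero1l, the paralogue of Ero1lb, had no site, and the nearest peak lay 41.4 kb from it. Within this group of 5 genes, 3 had a site in the resting pooled list, 2 in the 48 h list and 4 in the 96 h list. Over all protein-coding genes the shares were 26.5%, 20.8% and 47.7%.

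The sensors and transcription factors of ER stress held 5 of the 11 sites with at least 3 replicate peaks, at 3 of 4 genes. The group had 10 sites in all, and 19.8% of all sites had such support. Ern1, Creb3l2 and Atf6 are long genes of 93203, 114892 and 163315 bp, beside a median of 15486.5 bp for protein-coding genes. A long gene gathers more peaks. Ern1 had 3 sites, and each recurred. Site 3, chr11:106352786-106353071, lies 3743 bp upstream of the gene start in intergenic sequence and had a peak in 6 of 9 replicates. Its percentiles were 26.5, 0 and 72.4 in resting B cells, 90.0, 0 and 0 at 48 h, and 60.1, 46.7 and 68.5 at 96 h. Every 96 h replicate held a peak there, the ranges of the 3 time points overlapped, and the exact permutation p was 0.561 (adjusted 0.722). The site was in all 3 pooled lists, at percentiles of 85.6, 31.9 and 81.9.

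The other sites of Ern1 lie at its far end and inside it. Site 1, chr11:106253143-106253456 and 2649 bp past the end of the gene, had percentiles of 83.3, 0 and 45.6 in resting B cells, 0 in all 3 replicates at 48 h, and 0, 62.9 and 81.7 at 96 h. No 48 h list held a peak there, while the resting and 96 h values overlapped (exact permutation p = 0.357, adjusted 0.587). Site 2, chr11:106279965-106280281 in intron 10, had 0, 0 and 32.6 in resting B cells, 38.4, 0 and 0 at 48 h, and 80.7, 0 and 89.9 at 96 h. At this site replicates 1 and 3 at 96 h were higher than any other replicate, replicate 2 at 96 h had no peak, and the exact permutation p was 0.286. With each replicate left out in turn the exact permutation p was 0.0357 to 0.679, and the lowest value came from leaving out the 96 h replicate that lacked the peak. Ern1 site 1 and site 3 flank the gene, and their motif matches have the same orientation as the gene, whereas the match at site 2 has the opposite one.

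Atf4, the transcription factor of the PERK branch, had 1 site, chr15:80096741-80097016. It lies 8902 bp past the end of Atf4 and only 2136 bp from the start of Rps19bp1. The percentiles were 26.5, 0 and 55.8 in resting B cells, 68.3, 0 and 0 at 48 h, and 0, 62.9 and 78.4 at 96 h. Each time point had at least 1 replicate with a peak and 1 without, and the exact permutation p was 0.657. Atf6, a sensor cleaved in the Golgi upon stress, had a single site in intron 6, at percentile 2.74 in replicate 3 at 96 h and 7.70 in the 96 h pooled list.

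Creb3l2, an ER-anchored transcription factor that promotes expression of vesicle coat genes, had 5 sites over a gene of 114892 bp. Site 5, chr6:37398024-37398260 and 5991 bp upstream of the start, was found most often, with percentiles of 11.1, 0 and 33.8 in resting B cells, 0 in all 3 replicates at 48 h, and 0, 3.56 and 31.3 at 96 h. It had no peak in any 48 h list (exact permutation p = 0.393). Site 2 in intron 7 had peaks in replicate 3 of resting B cells (22.2) and of 96 h-stimulated B cells (71.2), and in both pooled lists. Site 3 in intron 4 had a peak in replicate 2 at 48 h (83.2) and in the 48 h pooled list (77.5) and nowhere else, and this is the site with the AGAC repeat shown above. Sites 1 and 4 had no replicate peak.

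The plasma cell regulators and markers had 13 sites at 5 of 7 genes, 10 of them at Cd38 and Zbtb20. A site in any list was found at 55.3% of all protein-coding genes. Irf4, a transcription factor required for plasma cell formation, had no site in any list. The nearest peak lay 121.81 kb from it, the farthest among the 40 genes. Ell2, an elongation factor that favours the mRNA of secreted immunoglobulin, also had none, and the nearest peak was 25.62 kb away, in resting replicate 1. Xbp1 had 1 site, chr11:5422077-5422264 in its intron 2 and 1508 bp from the start. It was found in the 96 h pooled list alone, at percentile 44.2, with 0 in all 9 replicates, and it held no motif.

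Igj encodes the J chain that joins immunoglobulin polymers. Its site, chr5:88948337-88948578, lies 1083 bp past the end of the gene and had a peak only in replicate 3 of resting B cells (14.7) and replicate 3 at 96 h (56.1). The pooled percentiles were 11.8 in resting B cells and 36.1 at 96 h, with no peak at 48 h. Sdc1 encodes syndecan 1, the plasma cell surface marker CD138. Its site, chr12:8769550-8769799, lies 8451 bp upstream and had a replicate peak only in replicate 3 at 96 h (64.8), with pooled percentiles of 68.0 in resting B cells and 71.9 at 96 h. Sites at Xbp1, Igj and Sdc1 had too few replicate peaks to be tested.

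Cd38, a surface ectoenzyme of NAD metabolism, had 4 sites, which made 4.79 sites per 100 kb of gene and flanks. This was the highest density among the 40 genes, followed by Herpud1 at 4.09. It counts site 1 of Cd38, which had a peak in replicate 2 at 48 h alone. Site 3, chr5:44285323-44285692 in intron 1, had percentiles of 0, 35.4 and 76.8 in resting B cells, 0 in all 3 replicates at 48 h, and 17.3, 90.1 and 73.5 at 96 h. Every 96 h replicate and no 48 h replicate held a peak, with resting replicates on both sides, and the exact permutation p was 0.15 (adjusted 0.416). The pooled percentiles were 86.3, 64.2 and 91.5, so the merged 48 h reads did give a peak. Site 4, chr5:44315257-44315513 and 11773 bp past the end of the gene, had 0, 14.98 and 83.3 in resting B cells, 36.5, 0 and 90.7 at 48 h, and 0, 0 and 11.2 at 96 h. Its highest values fell in resting and 48 h-stimulated B cells, and the exact permutation p was 0.443. Sites 1 and 2 lie in intron 1 as well, site 1 with a peak in replicate 2 at 48 h alone (4.53) and site 2 in replicates 2 and 3 at 96 h (8.15 and 15.8).

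Zbtb20, a transcription factor required for lasting plasma cells, is the longest of the 40 genes at 766722 bp and had 6 sites, all in introns. Site 4, chr16:43540264-43540543 in intron 9, had peaks in the 96 h replicates alone, at percentiles of 66.7, 9.49 and 69.8, and 0 in all 6 resting and 48 h replicates. The exact permutation p was 0.0357 (adjusted 0.172). The site entered the test only through its 3 peaks at 96 h, so the separation of the 96 h values from the others followed from the limit of 3 replicates and is given as a description. A peak in every 96 h replicate and in no other replicate was found at 10.6% of tested sites, and in every 96 h and no resting replicate at 16%. The converse, a peak in every resting and no 96 h replicate, was found at 0 of the 55 sites and at 0.239% of tested sites. The pooled 96 h percentile was 76.4. When any 1 resting or 48 h replicate was left out, the unadjusted exact permutation p of this site was 0.0714.

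Site 5 of Zbtb20, chr16:43574034-43574489 in intron 11, had peaks in replicate 2 at 48 h (79.1) and in replicates 1 and 3 at 96 h (85.7 and 93.0), with 0 in the other 6 replicates. It held the AG repeat and no motif, and the exact permutation p was 0.25. The pooled percentiles were 0.369, 82.2 and 94.5. Sites 1 and 6 were found in the 96 h pooled list alone, site 3 in the 48 h pooled list alone, and site 2 in replicate 2 at 48 h alone. Sites 4 and 5 lie 664406 and 698239 bp from the gene start, and thus near the end of Zbtb20.

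Of the 9 chaperones and cochaperones, 7 had a site, 4 in the resting pooled list, 1 at 48 h and 6 at 96 h. The pooled shares over all protein-coding genes were 26.5%, 20.8% and 47.7%. Sdf2l1, which acts with the chaperone encoded by Hspa5 in the ER, is the shortest of the 40 genes at 2246 bp. Its site, chr16:17127460-17127735 and 2641 bp past its end, was the only chaperone site with at least 3 replicate peaks. The percentiles were 0, 0 and 76.8 in resting B cells, 18.0, 0 and 0 at 48 h, and 0, 78.1 and 69.8 at 96 h. The groups overlapped (exact permutation p = 0.571), and in the pooled lists the site was at 57.4 in resting B cells and 90.3 at 96 h, with no peak at 48 h.

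Hspa5 encodes BiP, the chaperone that binds free immunoglobulin heavy chains. Its site, 7780 bp past its end and inside an intron of Rabepk, had peaks in replicates 1 and 3 of resting B cells (79.4 and 8.19) and in no stimulated replicate. The pooled percentile was 66.1 in resting B cells and 7.005 at 96 h, with no peak at 48 h. With only 2 replicate peaks it was not tested. Dnajb9, a cochaperone of BiP, had 1 of the 2 sites within 1 kb of a gene start, 305 bp upstream, with a peak in replicate 3 at 96 h (65.7) and in the 96 h pooled list (44.3). The cochaperone gene Dnajb11 had a site in its intron 10 (40.6 in replicate 3 at 96 h), and Dnajc3 a site 18685 bp upstream, inside Dzip1 (3.905 in the same replicate). Manf, an ER protein released under stress, had 2 sites in the neighbouring Dock3, site 1 with a peak in replicate 3 at 96 h (40.1) and site 2 in replicate 2 at 48 h (16.9). Calr, the lectin chaperone calreticulin, had a site in the resting pooled list alone (36.9), while Canx, encoding calnexin, and Hsp90b1, encoding GRP94, had none, the nearest peaks being 39.015 and 25.758 kb away.

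The 9 genes of ER-associated degradation had 10 sites at 8 genes, none with a peak in 3 or more replicates and none in the 48 h pooled list. Such replicate support was found at 19.8% of all sites, and a 48 h pooled site at 20.8% of all protein-coding genes. Edem1, Edem2 and Edem3, which trim mannose from misfolded glycoproteins, each had 1 site, found at 96 h alone. The site of Edem3 lies in an untranslated exon and had peaks in replicates 1 and 3 at 96 h (17.3 and 48.7). Herpud1, a membrane component of the degradation complex, had 2 sites, and site 1, 7608 bp upstream, had peaks in the same 2 replicates (4.77 and 65.7) and pooled percentiles of 53.8 in resting B cells and 79.7 at 96 h. Sel1l and Syvn1 encode the adaptor and the ubiquitin ligase of the complex. Sel1l had a 96 h pooled site past its end (51.5) and an intronic one in replicate 3 at 96 h alone (7.33), and Syvn1 had a 96 h pooled site 2266 bp upstream (7.05). Of the derlins, which act in moving misfolded proteins out of the ER, Derl1 had a site 358 bp upstream in the resting pooled list (2.69), Derl3 had one 9968 bp upstream in resting replicate 3 (22.2), and Derl2 had none.

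The 6 genes of translocation and export had 7 sites at 5 genes, none in the resting or 48 h pooled list. Among all protein-coding genes, 26.5% and 20.8% had a site in those lists. Sec61a1 and Sec61b, subunits of the channel through which nascent chains enter the ER, each had 1 site in the 96 h pooled list alone (31.1 and 22.1), and neither had a replicate peak. Ssr1, a subunit of the translocon-associated protein complex, had 2 sites, and site 1 had a peak in replicate 3 at 96 h (19.3). Ssr3 of the same complex had 1 site, in an untranslated exon and at percentile 9.59 in the 96 h pooled list. Sec24d, a cargo-binding protein of the vesicle coat, had 1 intronic site in the 96 h pooled list (9.59) and another in replicate 2 at 48 h alone (37.7). Sec23b, of the same coat, had no site within 20 kb, and the nearest peak lay 45.376 kb away.

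The 20 kb limit left some genes just inside and others just outside. The farthest site still counted was that of Sec61b, 19644 bp from the gene, followed by those of Dnajc3 and Calr at 18685 and 18005 bp. Of the 7 genes without a site, Ell2 and Hsp90b1 came nearest, and Derl2 had its nearest peak at 32.928 kb.

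With respect to position, 24 of the 55 sites lay within the gene body, 22 of them in introns and 2 in exons, 17 lay upstream and 14 downstream. Only 2 were within 1 kb of the start, those of Dnajb9 and Derl1, and neither held the motif. The centre of 10 sites fell in another gene. Of the 38 motif matches, 23 had the orientation of the gene and 15 the opposite one. In the 96 h pooled list the median percentile of the sites at the 40 genes was 44.2, beside 50.0 for all sites, in the resting pooled list 53.3 beside 51.2 and in the 48 h pooled list 43.9 beside 54.5. In the 3 replicates at 96 h it was 63.4, 62.9 and 60.9, each above the median of all sites (50.9 to 52.0). In the resting replicates it was 26.5, 35.4 and 45.6 and in the 48 h replicates 44.3, 37.7 and 47.2, each below the median of all sites (50.2 to 53.1). These medians rest on 2 to 27 sites per replicate.

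**Figure D4:**
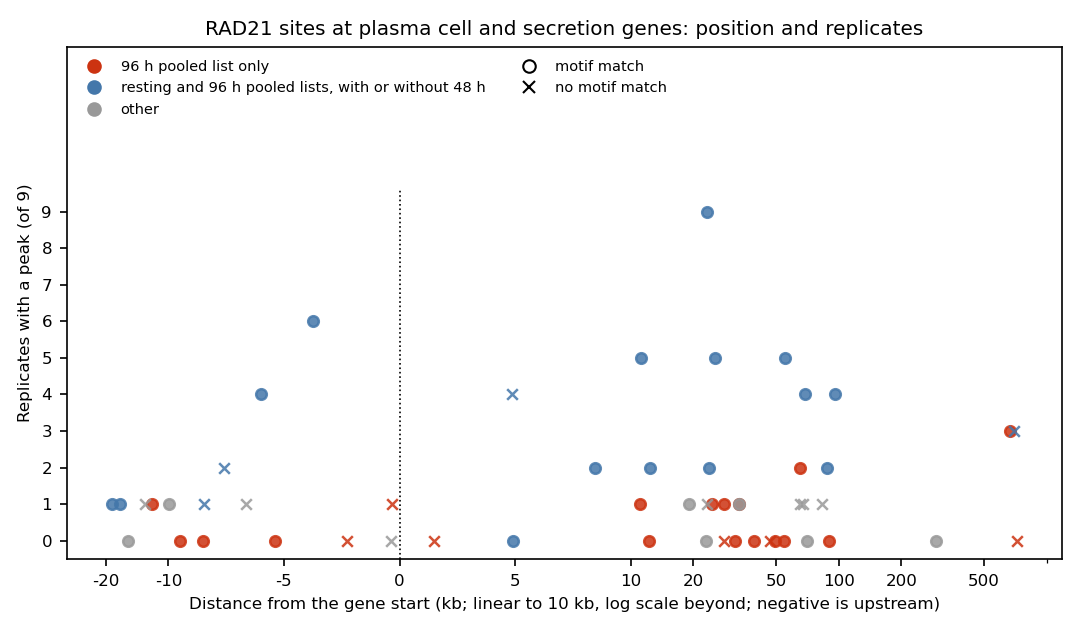
Distance of each of the 55 sites from the start of its gene (kb, negative upstream, linear to 10 kb and logarithmic beyond) against the number of the 9 replicates with a peak there, with circles for sites holding the motif, crosses for those without and colours for the pooled lists. The site at the top with 9 replicates is Ero1lb site 2, and 2 crosses close to the dotted line at the gene start are the sites of Dnajb9 and Derl1.

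A further list of secretory and plasma cell genes, chosen by their known roles with earlier results of these data known, was described in the same way. Of 78 such genes, 76 were found in the annotation, and 48 had at least 1 site. In the pooled lists, 22 had a site in resting B cells (28.9% beside 29.0% of genes of similar length), 15 at 48 h (19.7% beside 21.5%) and 43 at 96 h (56.6% beside 51.6%). They had 70 sites, of which 23 were tested, and 5 had an unadjusted exact permutation p of at most 0.05, beside the 22.6% of all tested sites given above. Sites of Bcl6, Eif2ak3, Srp14 and Txndc11 had peaks in 7 replicates, and sites of Dad1 and Sec24a in 6. The site near Srp14, a gene of the signal recognition particle, had percentiles of 52.7, 86.6 and 89.9 in resting B cells, 0, 0 and 6.59 at 48 h, and 60.9, 42.3 and 16.3 at 96 h. All 48 h values were the lowest there (exact permutation p = 0.0107, adjusted 0.172). Bcl6, the repressor that opposes plasma cell formation, had a site with 0, 14.98 and 76.8 in resting B cells, 0.910, 0 and 61.0 at 48 h, and 52.0, 50.9 and 81.7 at 96 h, with overlapping groups (exact permutation p = 0.304).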

How the data were processed

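The deposited values were peak lists in mm9 coordinates with a score for each peak. According to their methods and notes, the authors aligned RAD21 ChIP-seq reads to mm9 with Bowtie2, reduced every set to the same number of unique positions, and called peaks against input DNA with MACS at a false discovery rate of 0.05, for each replicate and for merged replicates. The statistic behind the deposited score is not given in the sources used here, so the score was used only as a rank within a list. Read numbers per peak were not analysed here, and intervals cover counting error only.

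Peaks overlapping by 1 bp or more between lists formed 1 site. Gene bodies came from GENCODE M1. Genes of similar length were those within 1.2-fold, 58 to 2133 per member. Sites found in 3 or more replicates were tested by an exact permutation test of the between-group sum of squares of percentiles over 1680 arrangements, which takes differences in either direction, with Benjamini-Hochberg adjustment over all tested sites, and pairs of time points by a two-sided exact permutation test. The replicates were separate biological samples by their labels. The labels do not say whether replicates of equal number were paired. Correlations of deviations were -0.0801 to 0.0791 for equal and -0.0905 to 0.111 for unequal numbers, and these overlapping ranges cannot decide it. The main test took the replicates as unpaired, and a replicate block, which permutes within equal numbers, was run as an alternative. Sites with at least 6 replicate peaks, with an unadjusted p of at most 0.05, or at Irf4, Xbp1, Igj or Sdc1 were given in full by rule, and the other sites with at least 3 replicate peaks were added after their values were seen. The members and gene lists were chosen with earlier results of these data known. Alternatives were other windows, score limits, list lengths, replicate support, merging distances, motif limits and each replicate left out. The code was tested on simulated data. The tools were scipy 1.17.1 and numpy 2.4.6 under Python 3.11.15, with pysam 0.24.0 for sequences and matplotlib 3.10.9 for plots.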

Additional observations from a re-analysis of the deposited data

How the results depend on the processing

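The share of the 40 genes with a site depended on the window and on which pooled peaks were counted; each value is followed by that of genes of similar length. With 50 kb the pooled shares were 67.5% and 43.2% in resting B cells, 42.5% and 36.1% at 48 h, and 95% and 70.3% at 96 h, and the replicate means were 30% and 20.6%, 16.7% and 17.2%, and 48.3% and 41.1%. Within gene bodies alone they were 15% and 10.2% in resting B cells, 15% and 8.56% at 48 h, and 30% and 20.7% at 96 h. The highest-scoring 50% of peaks gave 22.5% and 16.7% in the resting pooled list, 32.5% and 32.2% in the 96 h pooled list and 4.17% and 5.32% in the 48 h replicates. Pooled lists of equal length gave 40% and 28.5% in resting B cells, 20% and 22.6% at 48 h, and 27.5% and 29.1% at 96 h. Replicate lists of equal length, at 821 peaks, gave 5.83% and 5.27% in resting B cells, 3.33% and 3.92% at 48 h, and 5% and 5.23% at 96 h. Support from at least 1 replicate gave 22.5% and 21.7% for resting B cells and 47.5% and 41.6% at 96 h. Support from at least 2 replicates gave 15% and 10.7%, 5% and 4.35%, and 22.5% and 24.7% for the 3 time points. Without pooled 96 h peaks supported by replicate 3 alone, a choice made after seeing the data, the shares were 55% and 41.1%. With each replicate left out, mean shares were 8.75% to 17.5% in resting B cells, 8.75% to 13.8% at 48 h and 16.3% to 33.8% at 96 h. With similar genes matched on gene density as well as length, their pooled shares were 27.6% in resting B cells and 50.7% at 96 h. With the stricter motif limit, reached by 1% of windows, 50.9% of sites held the motif.

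In the site test, 0 sites passed after adjustment under every alternative run, and 62 (replicate block) to 851 sites had an unadjusted exact permutation p of at most 0.05. With the replicate block, 0 of the 11 member sites had such a p, and both Ero1lb site 2 and Zbtb20 site 4 had 0.111. Without a 96 h replicate, Zbtb20 site 4 had too few peaks to be tested, while Ero1lb site 2 kept an unadjusted exact permutation p of 0.0143 to 0.0393 with any 1 replicate left out, and had 0.1 with lists of equal length. With lists of equal length only 2 member sites could be tested, and 0 had one. The lists hold no read numbers, so a site below the authors' limit cannot be told from a site without cohesin, and 3 replicates per time point allow no p under 0.00357 for a site.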
